A study of Mus musculus with 6 samples.

Results

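The genes described are the collagens, the laminins and other structural genes of the extracellular matrix, measured in mouse ileum, the last stretch of the small intestine. They were chosen by name: every gene of the array annotation whose symbol is Col, a number, a and a number, every gene whose symbol starts with Lama, Lamb or Lamc and a digit, and a list of 19 further genes that runs from fibronectin (Fn1) and decorin (Dcn) to vimentin (Vim) and the PDGF receptors. Fbn1, on that list, had no probe set annotated to it alone and was not analysed here. The rule gave 64 genes, of the 12393 genes that the array names through a probe set of their own: 36 collagens, 10 laminins and 18 listed genes, read by 106 probe sets. Each gene was represented by its brightest probe set. For 36 of the 64 genes that probe set passed the signal filter, and 28 genes lay in the lowest 40% of the array by mean signal.

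The 6 arrays formed 3 groups of 2, all from male wild-type mice of a mixed C57BL/6:129Sv strain aged 8 to 10 months. BDL_GW4064 mice had the common bile duct ligated and were given GW4064, a synthetic compound that activates FXR, the nuclear receptor for bile acids. The dose was 100 mg/kg/day by gavage, from 2 days before to 5 days after the operation. BDL_Vehicle mice had the ligation and the vehicle, 1% Tween80 with 1% methylcellulose, and Sham_Vehicle mice had the duct freed without a ligature and the same vehicle. A group of sham-operated mice with GW4064 was not analysed here, so the agonist is compared in ligated mice alone. The labels do not say whether the 2 arrays of a group come from separate mice, so the p-values measure the spread between these arrays, which may be technical.

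Fibrillar collagens, of types I, III and V, are rod-like triple helices that give the gut wall its tensile strength. Fibronectin is laid down with them and offers integrins a place to bind, and type VI collagen forms beaded filaments beside the fibres. Type IV collagen, laminins and nidogen build the basement membrane, the sheet on which the epithelium and the vessels rest. Small leucine-rich proteoglycans such as decorin, lumican and biglycan bind collagen fibrils, and matricellular proteins such as SPARC and the thrombospondins sit in the matrix and tune how cells attach to it. In the intestine most of these genes are known from fibroblasts, smooth muscle and pericytes, while the epithelium makes some of the laminin chains.

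Fibronectin was the 1 matrix gene whose difference with GW4064 passed the threshold, a limma adjusted p under 0.05. Fn1 had MAS5 signals of 631.7 and 620.5 in the BDL_GW4064 arrays, against 168.0 and 161.7 in the BDL_Vehicle arrays and 187.3 and 230.8 in the Sham_Vehicle arrays. A MAS5 signal is the background-corrected brightness of a probe set in arbitrary units on a linear scale, and it compares arrays for 1 probe set but not 1 probe set with another. Both arrays with GW4064 lay above all 4 arrays without it. The mean was 626.1 ± 7.92 in BDL_GW4064 and 164.8 ± 4.46 in BDL_Vehicle (SD, n = 2 each), 3.73-fold higher with GW4064 (log2 fold change 1.90 ± 0.157 (SE), limma adjusted p = 0.0094). It was called at an adjusted p under 0.05 over 13575 probe sets, a threshold that 7 of them, 0.0516%, passed in this comparison. The call was lost when BDL_Vehicle replicate 1 (limma adjusted p = 0.0874) or replicate 2 (limma adjusted p = 0.0613) was left out, with log2 fold changes of 1.93 and 1.87. In such fits the lone array of a group is assumed to vary as the other groups do. A second Fn1 probe set lay under the signal filter, with 29.3 and 40.7 in the BDL_GW4064 arrays, against 9.6 and 19.7 in the BDL_Vehicle arrays.

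The other matrix genes were mostly higher with GW4064 too, without passing the threshold one by one. Of the 36 genes that passed the signal filter, 34 had a higher mean in BDL_GW4064 than in BDL_Vehicle, and the median log2 fold change was 0.98, against 0.00 over all 7919 genes that passed. Col15a1, Lum and Mgp passed through their BDL_GW4064 signals alone and Col20a1 through its BDL_Vehicle signals, so counts are given for the other 32. Among these, 27 had both BDL_GW4064 arrays above both BDL_Vehicle arrays and 1 had both below, while the same held for 18.6% and 16.8% of the 7745 genes that passed without any 1 group. An unadjusted p under 0.05 was reached by 23 of the 32, all higher with GW4064, against 4.76% of the 7745 genes, and the median was 0.97. Over all 64 genes, with no filter on signal, 41 lay higher and 6 lower without overlap, against 19.3% and 15.4% of all genes on the array, and the median was 0.60, against 0.01. The members not described one by one, Col5a2, Col18a1, Lamb1, Lamc1 and Tnc, named after their values were seen, had log2 fold changes between 0.59 (Lamb1) and 1.01 (Col5a2). These counts describe a set picked by name with earlier results known, and no test was made of the set.

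**Figure D1:**
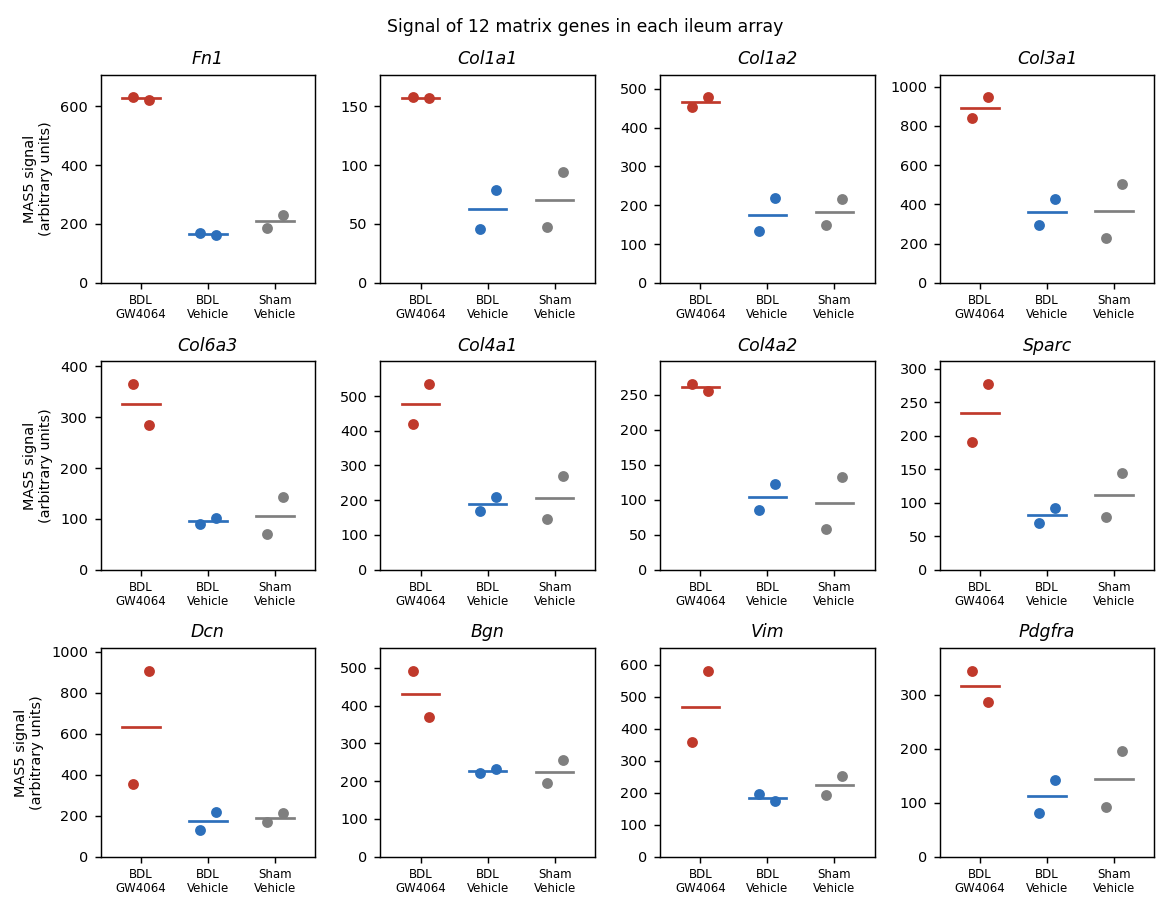
MAS5 signals (arbitrary units, each panel with its own axis from 0) of 12 matrix genes in the BDL_GW4064, BDL_Vehicle and Sham_Vehicle arrays. Each point is 1 array and each bar the mean of 2. In all 12 panels both BDL_GW4064 points lie above the points of the other groups, with the widest gap between the BDL_GW4064 arrays for Dcn (352.6 and 908.8).

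Markers of other cells in the wall moved with part of this pattern, and a change in how many cells of a type were sampled cannot be told apart from a change in RNA per cell in bulk tissue. The summed signal of the 64 matrix genes was 9851 and 10539 in the BDL_GW4064 arrays, against 4630 and 5406 in the BDL_Vehicle arrays and 4818 and 6204 in the Sham_Vehicle arrays. The 18 epithelial markers on the array all passed the filter and their sums overlapped between the groups, with 62506 and 55585 in BDL_GW4064, 58386 and 61345 in BDL_Vehicle and 62388 and 58763 in Sham_Vehicle. Smooth muscle genes, 18 in number, were by far highest in 1 array. Their sum was 23225 in BDL_GW4064 replicate 2, against 4241 in BDL_GW4064 replicate 1 and 3395 to 4210 in the other 4 arrays. Of the 13 that passed without any 1 group, 9 lay higher in both BDL_GW4064 arrays than in both BDL_Vehicle arrays, as 18.6% of all genes did. An unadjusted p under 0.05 on the higher side was reached by 8 of the 13, against 4.76% of all genes. The 15 endothelial markers summed to 960.2 and 906.8 in BDL_GW4064, against 571.6 and 558.7 in BDL_Vehicle and 535.4 and 708.5 in Sham_Vehicle. The sum was thus higher in both arrays with GW4064, but only 7 of the 15 passed the filter. Of the 6 that passed without any 1 group, 5 lay above BDL_Vehicle without overlap, as 18.6% of all genes did. Lyve1 did not (log2 fold change -0.05 ± 0.292 (SE)). The 11 genes of mesenteric fat summed to 4199 and 5020 in BDL_GW4064, 2898 and 3602 in BDL_Vehicle and 3223 and 3931 in Sham_Vehicle. Adipor2 was the largest part, with 2526 and 1791 in BDL_GW4064 and 1620 and 1830 in BDL_Vehicle. Fabp4 and Car3 were higher in replicate 2 of each group. Car3 had 51.2 and 672.3 in BDL_GW4064, 20.2 and 143.1 in BDL_Vehicle and 75.1 and 209.0 in Sham_Vehicle. The 14 macrophage genes gave 8869 and 8422 in BDL_GW4064, 8474 and 7765 in BDL_Vehicle and 7747 and 6777 in Sham_Vehicle. Most of that sum was Lyz1, also known as a Paneth cell gene, with 5474 and 5276 in BDL_GW4064 and 5677 and 5622 in BDL_Vehicle. Of the 13 macrophage genes that passed the filter, 10 were higher with GW4064 than in BDL_Vehicle, 8 without overlap (18.6% of all genes were). An unadjusted p under 0.05 was reached by 4 (4.76% of all genes), among them C1qc (log2 fold change 0.96 ± 0.158 (SE), limma adjusted p = 0.164), C1qa (0.86) and Mpeg1 (0.54). Lower values were those of Cd14 (-0.26), Itgam (-0.07) and Lyz1 (-0.07), and Adgre1 (0.06) and Lyz2 (0.21) overlapped between the groups. For enteric nerve, glia and pacemaker cells 2 of 14 markers passed the filter, and the sum was 546.3 in BDL_GW4064 replicate 2, the array of high muscle signal, against 238.8 to 357.6 in the other 5 arrays. Of 8 exocrine pancreas and 6 mesothelial markers 1 each passed. The part of muscle, vessels, fat, nerve and macrophages in the matrix values was not tested.

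Set against BDL_Vehicle, the matrix genes were about as high without BDL_GW4064 replicate 2, the array of highest smooth muscle signal. In replicate 1, too, 9 of 13 smooth muscle genes lay above both BDL_Vehicle arrays, and the part of muscle was not tested. With BDL_GW4064 replicate 2 left out, 29 of the 32 genes lay higher than both BDL_Vehicle arrays, where 33.9% of all genes did, 23 had an unadjusted p under 0.05 on the higher side (4.22% of all genes), with the spread taken from the other groups, and the median log2 fold change was 1.05. With BDL_GW4064 replicate 1 left out, these values were 29, 20 and 0.93, where 34.3% of all genes lay higher and 4.36% had such a p. The control probe set for the 5′ end of 18S rRNA split the arrays in a second way, with 9.0 and 8.6 in BDL_GW4064, 88.7 and 13.3 in BDL_Vehicle and 88.0 and 67.3 in Sham_Vehicle. Set against BDL_Vehicle replicate 2, the array with a similarly low value, 30 of the 32 genes were higher in both BDL_GW4064 arrays (33.0% of all genes were) and the median was 0.92.

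**Figure D2:**
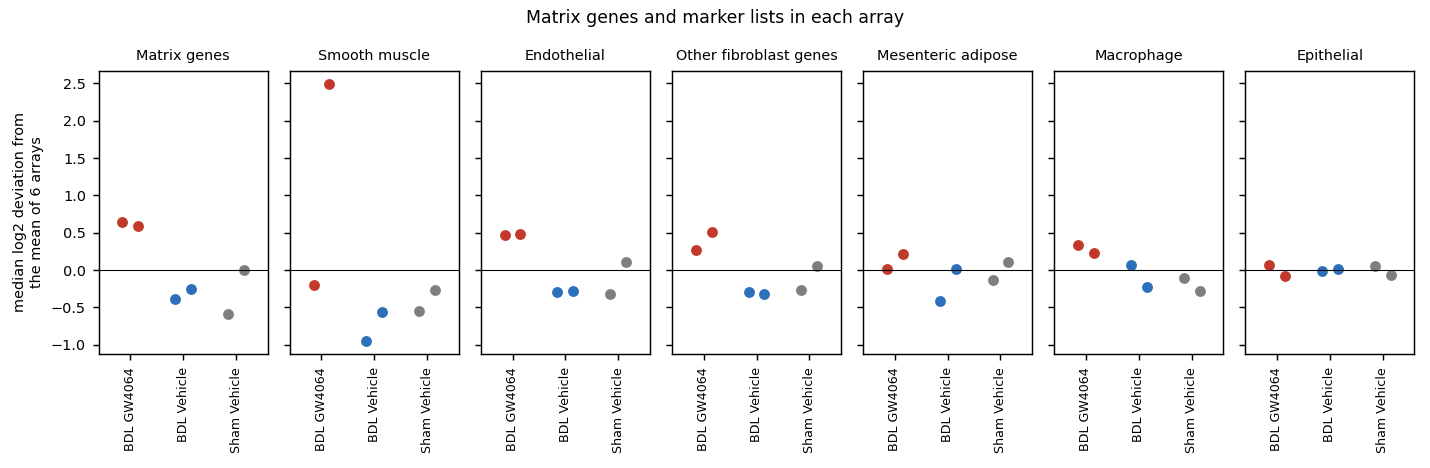
Median log2 deviation from the mean of the 6 arrays (vertical axis) for 32 matrix genes and 6 marker lists, with 1 point per array and the groups BDL_GW4064, BDL_Vehicle and Sham_Vehicle from left to right. Matrix genes lie at 0.65 and 0.59 in the BDL_GW4064 arrays, while smooth muscle genes lie at -0.19 and 2.50 in the same arrays and epithelial genes stay near 0 throughout.

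Fibronectin aside, the matrix genes with the smallest p that have a single promoter window in the RefSeq table of assembly GRCm38.p6 were Ecm1, Col6a3, Col1a2 and Vim. Their 250 bases upstream of the gene's start are shown because these genes were higher together, with matches to the motifs searched in capitals.
Ecm1, chr3:95739570-95739819, minus strand: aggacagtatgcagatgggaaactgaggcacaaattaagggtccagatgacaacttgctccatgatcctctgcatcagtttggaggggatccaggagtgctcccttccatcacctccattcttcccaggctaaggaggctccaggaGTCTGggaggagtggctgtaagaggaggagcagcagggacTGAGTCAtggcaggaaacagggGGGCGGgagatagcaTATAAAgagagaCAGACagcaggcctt
Col6a3, chr1:90843972-90844221, minus strand: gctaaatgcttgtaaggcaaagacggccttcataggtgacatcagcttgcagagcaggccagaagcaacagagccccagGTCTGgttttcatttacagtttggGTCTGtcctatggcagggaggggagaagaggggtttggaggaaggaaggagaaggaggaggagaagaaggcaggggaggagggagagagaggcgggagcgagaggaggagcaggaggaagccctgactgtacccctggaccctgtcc
Col1a2, chr6:4505368-4505617, plus strand: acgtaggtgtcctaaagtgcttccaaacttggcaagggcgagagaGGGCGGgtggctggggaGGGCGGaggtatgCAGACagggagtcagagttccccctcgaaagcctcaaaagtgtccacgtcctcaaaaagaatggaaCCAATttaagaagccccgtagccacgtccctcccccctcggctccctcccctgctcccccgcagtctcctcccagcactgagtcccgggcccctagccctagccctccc
Vim, chr2:13574061-13574310, plus strand: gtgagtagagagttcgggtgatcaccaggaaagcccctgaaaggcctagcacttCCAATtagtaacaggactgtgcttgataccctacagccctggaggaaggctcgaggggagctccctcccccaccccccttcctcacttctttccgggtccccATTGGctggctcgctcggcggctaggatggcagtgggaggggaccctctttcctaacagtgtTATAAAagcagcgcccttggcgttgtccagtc

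Both strands were searched for the TATA box (TATAAA), the CCAAT box (CCAAT), the GC box (GGGCGG), the AP-1 site (TGANTCA), the SMAD binding element (CAGAC), the cAMP response element (TGACGTCA) and the nuclear receptor half-site (AGGTCA), and no motif contains another. The Ecm1 window held a TATA box that starts at base -27 from the gene's start, a GC box at -42, an AP-1 site at -64 and 2 SMAD elements. Vim had a TATA box at -32 and 2 CCAAT boxes, Col1a2 a CCAAT box at -109, 2 GC boxes and a SMAD element at -175, and Col6a3 2 SMAD elements. The SMAD element thus stood in all of these windows but that of Vim, and none of the motifs stood in all 4. Among the 24 matrix genes that passed the signal filter and have a window, 16 (66.7%) held a SMAD element and 14 (58.3%) a GC box, against 45.8% and 35.4% of 27025 genes. CCAAT boxes stood in 33.3% of them, against 37.5% of all genes, TATA boxes in 16.7%, against 14.3%, and AP-1 sites in 8.33%, against 7.82%. The half-site was found in 1 of the 24 windows, that of Col20a1 (4.17%, against 15.8% of all genes), and the inverted repeat of it with 1 base between, the element FXR is known to bind, in 0 of 24, against 0.0074% of all genes. An exact inverted repeat stood in only 2 of the 27025 genes, so its absence from 24 windows cannot show that FXR sites are lacking. A match to letters is no proof of a bound site, and distal elements lie outside this window.

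The fibrillar collagens were higher with GW4064 in each of the 5 genes that passed the filter, out of 9 on the array. Col1a2, the alpha2 chain of type I collagen, had signals of 451.8 and 479.2 in the BDL_GW4064 arrays, against 133.6 and 217.8 in the BDL_Vehicle arrays and 147.9 and 217.0 in the Sham_Vehicle arrays. The groups with and without GW4064 did not overlap, and the log2 fold change against BDL_Vehicle was 1.43 ± 0.264 (SE), 2.69-fold (limma adjusted p = 0.209). Its partner chain Col1a1 had 158.1 and 156.8 in BDL_GW4064, against 45.6 and 79.3 in BDL_Vehicle and 47.4 and 94.1 in Sham_Vehicle (log2 fold change 1.33 ± 0.354 (SE), limma adjusted p = 0.383). The 2 chains of the type I helix thus differed by similar amounts, 2.51-fold for Col1a1.

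Col3a1, which makes the type III collagen of pliable tissues, had 838.1 and 947.4 in BDL_GW4064, against 294.2 and 424.7 in BDL_Vehicle and 230.5 and 504.5 in Sham_Vehicle. It was 2.50-fold higher with GW4064 (log2 fold change 1.32 ± 0.341 (SE), limma adjusted p = 0.368), and the vehicle groups spanned wide ranges that overlapped each other. Col5a1, a chain of the type V collagen that starts and limits fibril growth, had 106.0 and 89.1 in BDL_GW4064, against 44.3 and 54.8 in BDL_Vehicle and 45.2 and 48.5 in Sham_Vehicle. Its log2 fold change was 0.93 ± 0.228 (SE; limma adjusted p = 0.349). Over the 5 genes the median was 1.32, none was called and all 5 had an unadjusted p under 0.05 (4.76% of all genes, on the higher side).

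Type VI collagen, a heterotrimer of 3 chains, was measured through all 3 of its classical genes. All 3 lay higher with GW4064 without overlap, as 18.6% of all genes did. Col6a3 had 366.1 and 284.5 in the BDL_GW4064 arrays, against 90.3 and 100.8 in the BDL_Vehicle arrays and 70.0 and 142.4 in the Sham_Vehicle arrays. At 3.29-fold it was the largest collagen difference among genes of the 32 (log2 fold change 1.72 ± 0.31 (SE), limma adjusted p = 0.208). Col6a1 had 559.4 and 433.9 in BDL_GW4064, against 161.6 and 211.8 in BDL_Vehicle and 146.6 and 262.2 in Sham_Vehicle (log2 fold change 1.39 ± 0.285 (SE), limma adjusted p = 0.268). Col6a2, its neighbour on chromosome 10 with no protein-coding gene between in RefSeq order, had 580.1 and 477.1 in BDL_GW4064, against 159.5 and 244.6 in BDL_Vehicle and 116.0 and 282.3 in Sham_Vehicle (log2 fold change 1.40 ± 0.387 (SE), limma adjusted p = 0.404). The 3 chains were thus close to each other in their differences, and in all 3 Sham_Vehicle replicate 2 lay well above replicate 1.

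The basement membrane genes were less uniform. Of 19 on the array 10 passed the filter. Of the 9 that passed without any 1 group, 7 were higher with GW4064 without overlap and 1 was lower (18.6% and 16.8% of all genes). The median log2 fold change was 0.63. The paired genes of the widespread type IV collagen, Col4a1 and Col4a2, which lie side by side and are read in opposite directions from 1 shared promoter region, led the group. Col4a1 had 420.9 and 535.5 in BDL_GW4064, against 168.0 and 208.0 in BDL_Vehicle and 145.7 and 269.7 in Sham_Vehicle (log2 fold change 1.33 ± 0.286 (SE), limma adjusted p = 0.27). Col4a2 had 265.5 and 255.2 in BDL_GW4064, against 85.5 and 121.8 in BDL_Vehicle and 57.9 and 131.9 in Sham_Vehicle (log2 fold change 1.32 ± 0.353 (SE), limma adjusted p = 0.388). The 2 genes had the same fold to within their errors, 2.51 and 2.49. The chains Col4a3, Col4a4, Col4a5 and Col4a6, known from kidney and other specialised membranes, did not pass the filter.

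Among laminins, Lama5, the alpha chain of the main laminins of adult epithelium and vessels, had 144.2 and 139.0 in BDL_GW4064, against 79.5 and 84.2 in BDL_Vehicle and 77.7 and 112.2 in Sham_Vehicle. That was 1.70-fold higher with GW4064 (log2 fold change 0.76 ± 0.215 (SE), limma adjusted p = 0.412). Lama3 and Lamb3, which code for the alpha and beta chains of the epithelial laminin of hemidesmosomes, gave other values. Lamb3 had 362.2 and 297.5 in BDL_GW4064, against 409.5 and 556.2 in BDL_Vehicle and 380.5 and 197.3 in Sham_Vehicle, and was the 1 gene of the 32 that lay lower with GW4064 without overlap (log2 fold change -0.53 ± 0.303 (SE), limma adjusted p = 0.789). Lama3 had 244.8 and 80.4 in BDL_GW4064, against 162.8 and 113.8 in BDL_Vehicle and 222.5 and 171.3 in Sham_Vehicle. Its BDL_GW4064 arrays lay on either side of all the others, the log2 fold change of 0.05 ± 0.454 (SE; limma adjusted p = 0.995) has no settled sign, and it was -0.02 with median centring and -0.73 or 0.83 when BDL_GW4064 replicate 1 or replicate 2 was left out.

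Nid1, nidogen, which bridges the laminin and collagen networks, had 80.6 and 116.9 in BDL_GW4064, against 79.9 and 76.7 in BDL_Vehicle and 41.7 and 81.5 in Sham_Vehicle. The first array with GW4064 hardly exceeded the BDL_Vehicle arrays (log2 fold change 0.30 ± 0.326 (SE), limma adjusted p = 0.925). A second Nid1 probe set, under the signal filter, gave a different picture. It had 57.7 and 37.9 in BDL_GW4064, against 12.6 and 4.1 in BDL_Vehicle and 4.8 and 9.7 in Sham_Vehicle. Col15a1, a collagen of the basement membrane zone, had 68.2 and 52.6 in BDL_GW4064, against 27.2 and 31.6 in BDL_Vehicle and 40.7 and 49.4 in Sham_Vehicle. Both BDL_Vehicle values lay below 37.1, the lowest mean signal that passed the filter and the floor used here for dim groups, so the fold is given as at least 1.55-fold higher with GW4064 (limma adjusted p = 0.415).

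**Figure D3:**
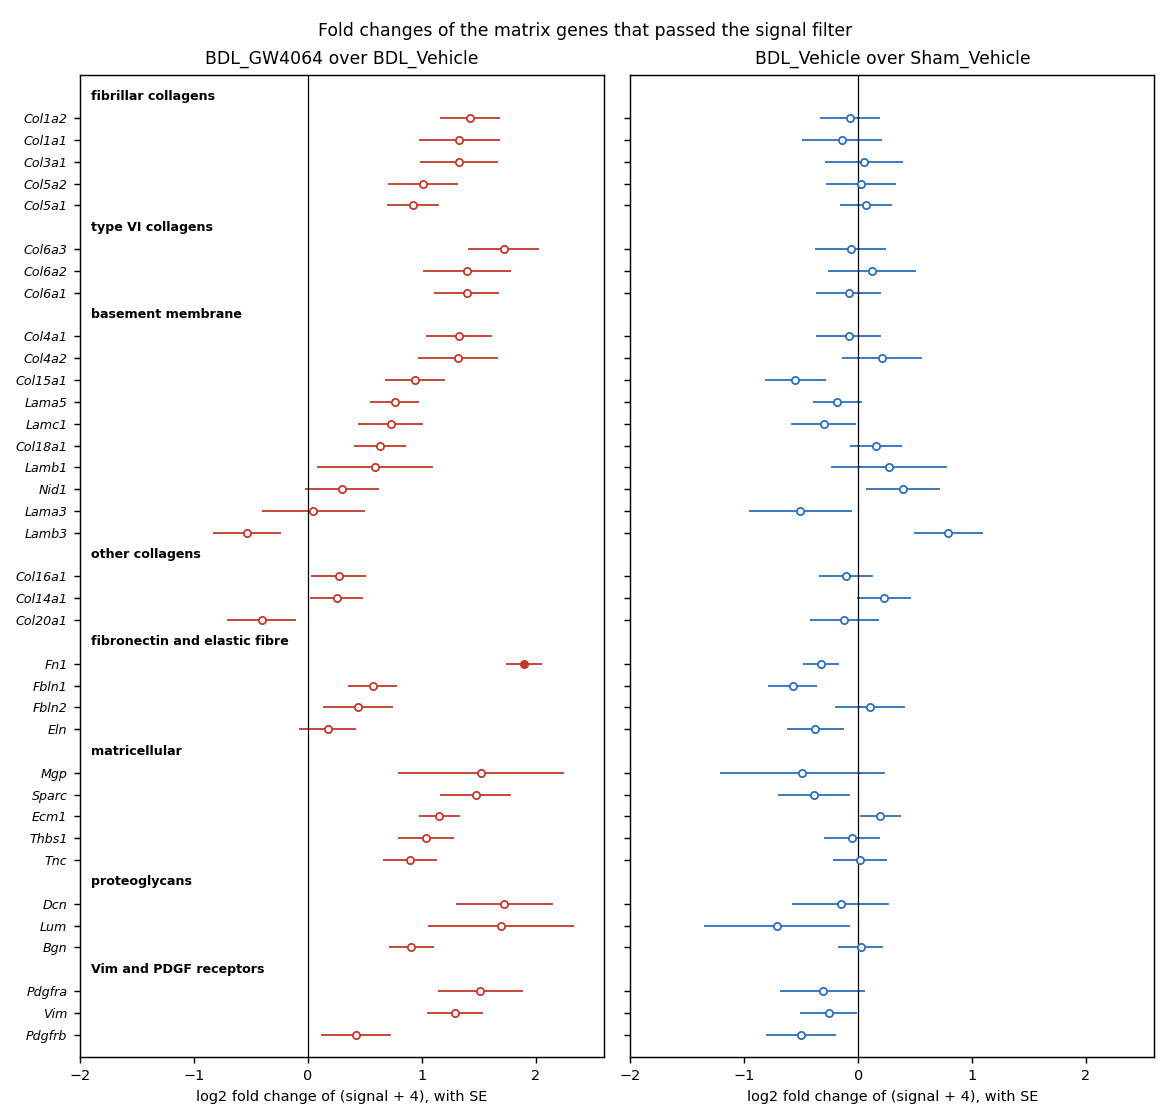
Log2 fold change of (signal + 4) with its SE (horizontal axis) for the 36 matrix genes that passed the signal filter, grouped by role, for BDL_GW4064 over BDL_Vehicle (left) and BDL_Vehicle over Sham_Vehicle (right). Filled points passed the adjusted threshold, which Fn1 alone did (left), and 34 of 36 points on the left are above 0, against 14 of 36 on the right.

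The elastic fibre genes stood nearer to no difference than fibronectin did. Fbln1, fibulin 1, a glycoprotein of elastic fibres and basement membranes, had 918.5 and 655.3 in BDL_GW4064, against 439.9 and 620.1 in BDL_Vehicle and 741.0 and 823.0 in Sham_Vehicle (log2 fold change 0.57 ± 0.215 (SE), limma adjusted p = 0.574). The BDL_Vehicle arrays were the low ones here, and the BDL_GW4064 arrays lay on either side of the Sham_Vehicle arrays. Fbln2 had 65.5 and 57.3 in BDL_GW4064, 38.4 and 50.5 in BDL_Vehicle and 53.1 and 30.9 in Sham_Vehicle (log2 fold change 0.44 ± 0.308 (SE)). Eln, elastin itself, had 45.0 and 61.8 in BDL_GW4064, 49.1 and 43.8 in BDL_Vehicle and 64.5 and 58.5 in Sham_Vehicle. Its log2 fold change of 0.17 ± 0.249 (SE; limma adjusted p = 0.946) was -0.04 without BDL_GW4064 replicate 2, so no direction can be given.

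All 4 matricellular genes that passed without any 1 group were higher with GW4064 without overlap (18.6% of all genes were), with a median of 1.10. All 4 had an unadjusted p under 0.05 (4.76% of all genes). Ecm1, extracellular matrix protein 1, a secreted glycoprotein, had 293.5 and 280.2 in BDL_GW4064, against 137.4 and 117.0 in BDL_Vehicle and 99.0 and 122.8 in Sham_Vehicle. It had the smallest p among matrix genes after Fn1, with tight arrays in each group (2.22-fold, log2 fold change 1.15 ± 0.18 (SE), limma adjusted p = 0.139). Sparc, a collagen-binding glycoprotein also called osteonectin, had 191.1 and 278.0 in BDL_GW4064, against 70.5 and 91.9 in BDL_Vehicle and 78.8 and 144.1 in Sham_Vehicle (log2 fold change 1.47 ± 0.314 (SE), limma adjusted p = 0.268). Its second probe set had 282.9 and 331.8 in BDL_GW4064, against 51.2 and 95.9 in BDL_Vehicle, with 24.6 and 136.7 in Sham_Vehicle. Thbs1, thrombospondin 1, an activator of latent TGF-beta, had 91.0 and 80.7 in BDL_GW4064, against 44.2 and 35.6 in BDL_Vehicle and 37.2 and 45.9 in Sham_Vehicle (2.05-fold, limma adjusted p = 0.325).

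Among the small proteoglycans, Dcn and Lum differed widely between the 2 BDL_GW4064 arrays. Bgn, biglycan, had 492.7 and 371.0 in BDL_GW4064, against 220.9 and 231.6 in BDL_Vehicle and 194.3 and 254.8 in Sham_Vehicle, 1.88-fold higher than in BDL_Vehicle (log2 fold change 0.91 ± 0.198 (SE), limma adjusted p = 0.28). Dcn, decorin, had 352.6 and 908.8 in BDL_GW4064, against 130.4 and 217.6 in BDL_Vehicle and 166.5 and 212.0 in Sham_Vehicle. Replicate 1 alone lay above every vehicle array, and replicate 2 was far higher still (log2 fold change 1.73 ± 0.424 (SE), limma adjusted p = 0.349). Lum, lumican, which lies next to Dcn on chromosome 10, had 32.9 and 178.2 in BDL_GW4064, against 20.9 and 21.8 in BDL_Vehicle and 42.5 and 33.3 in Sham_Vehicle. It was at least 1.99-fold higher than in BDL_Vehicle (limma adjusted p = 0.574), but replicate 1 of BDL_GW4064 lay below both Sham_Vehicle arrays, so that value comes from replicate 2.

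Vim, the intermediate filament of mesenchymal cells, had 356.5 and 581.1 in BDL_GW4064, against 194.2 and 173.9 in BDL_Vehicle and 193.1 and 252.7 in Sham_Vehicle. In this brightest probe set the arrays with GW4064 stood clear of the rest (2.45-fold, log2 fold change 1.29 ± 0.249 (SE), limma adjusted p = 0.24). Other Vim probe sets that passed the filter lay above BDL_Vehicle without overlap but overlapped Sham_Vehicle. Their log2 fold changes were 0.76 and 0.81 against BDL_Vehicle, and 0.35 and 0.38 against Sham_Vehicle. Pdgfra, the PDGF receptor of fibroblasts beneath the epithelium, had 344.7 and 286.3 in BDL_GW4064, against 81.2 and 142.0 in BDL_Vehicle and 91.8 and 196.2 in Sham_Vehicle (2.85-fold, log2 fold change 1.51 ± 0.374 (SE), limma adjusted p = 0.349). Pdgfrb, the receptor of pericytes, had 123.4 and 103.5 in BDL_GW4064, 109.4 and 63.5 in BDL_Vehicle and 96.1 and 149.8 in Sham_Vehicle. It overlapped between all groups (log2 fold change 0.42 ± 0.306 (SE), limma adjusted p = 0.844). A second Pdgfrb probe set, under the filter, had 77.7 and 43.6 in BDL_GW4064, against 15.8 and 16.4 in BDL_Vehicle and less than 37.1 in both Sham_Vehicle arrays, so the 2 probe sets of this gene give different pictures.

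Of 16 other collagens, mostly the fibril-associated and transmembrane types, 3 passed the filter and none had an unadjusted p under 0.05. Col14a1, fibril-associated, had 68.8 and 60.3 in BDL_GW4064, 57.3 and 49.8 in BDL_Vehicle and 41.1 and 49.4 in Sham_Vehicle (log2 fold change 0.25 ± 0.235 (SE)). Col16a1 had 54.2 and 70.0 in BDL_GW4064, 55.0 and 46.3 in BDL_Vehicle and 55.3 and 53.9 in Sham_Vehicle (log2 fold change 0.27 ± 0.239 (SE)). Col20a1 had 36.6 and 23.6 in BDL_GW4064, 44.7 and 36.4 in BDL_Vehicle and 39.7 and 49.2 in Sham_Vehicle, on either side of the 37.1 floor. The members nearest to the filter were Col20a1 (mean signal on the log scale 37.5) and Lum (40.2) inside it, and Col5a3 (36.0) and Col25a1 (35.1) outside.

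The 28 genes below the filter included cartilage collagens of types II, IX, X and XI and the skin anchoring collagens Col7a1 and Col17a1, which are not known as major products of the gut wall. Some differed between BDL_GW4064 and BDL_Vehicle without overlap, and the genes of this paragraph are named after their values were seen. Lama4, the laminin alpha chain of vessels and muscle, had 42.2 and 84.5 in BDL_GW4064, against 6.1 and 28.2 in BDL_Vehicle and 5.5 and 6.9 in Sham_Vehicle. Postn, periostin, had 198.5 in BDL_GW4064 replicate 2, the highest signal of any gene below the filter, but 23.9 in replicate 1, against 20.5 and 18.8 in BDL_Vehicle and 28.9 and 28.3 in Sham_Vehicle. On the other side, Col25a1, a transmembrane collagen, had 7.7 and 28.2 in BDL_GW4064, against 63.9 and 33.9 in BDL_Vehicle and 61.6 and 52.3 in Sham_Vehicle. Col7a1 had 14.2 and 28.4 in BDL_GW4064, against 42.9 and 29.3 in BDL_Vehicle and 47.5 and 22.3 in Sham_Vehicle, lower than BDL_Vehicle without overlap as Col25a1 was. Vcan, versican, stayed between 9.7 and 15.6 in all arrays.

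The arrays of a group differed among themselves in ways that touch these values. In BDL_GW4064, replicate 2 exceeded replicate 1 by more than 1 on the log2 scale for 3 of the 36 genes, Mgp (2.69), Lum (2.30) and Dcn (1.36), and lay more than 1 below it for Lama3 (-1.56), while 1.45% of all genes exceeded 1. Mgp, matrix Gla protein, an inhibitor of calcification named here after its values were seen, had 33.8 and 240.1 in BDL_GW4064, against 26.2 and 33.2 in BDL_Vehicle and 44.4 and 41.8 in Sham_Vehicle. The array in which Mgp, Lum and Dcn were high is the one with high smooth muscle signal, and the part of muscle in their values was not tested. The log2 difference between the signal of that array and that of replicate 1 was 0.08 for Col1a2, -0.01 for Col1a1, 0.18 for Col3a1, -0.36 for Col6a3 and -0.03 for Fn1. It was 0.70 for Vim, 0.53 for Sparc and 0.34 for Col4a1. Of the 36 genes, 12 were higher in replicate 2 and 24 lower. In Sham_Vehicle, replicate 2 was higher than replicate 1 for 29 of the 36 genes, with a median difference of 0.38, against 0.00 over all genes, and 5 genes differed by more than 1, where 0.644% of all genes did. Sham_Vehicle replicate 2 also had the highest ratio of 3′ to 5′ actin signal, 1.73, against 1.09 to 1.22 in the other 5 arrays, and whether this is linked to the matrix values was not tested.

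**Figure D4:**
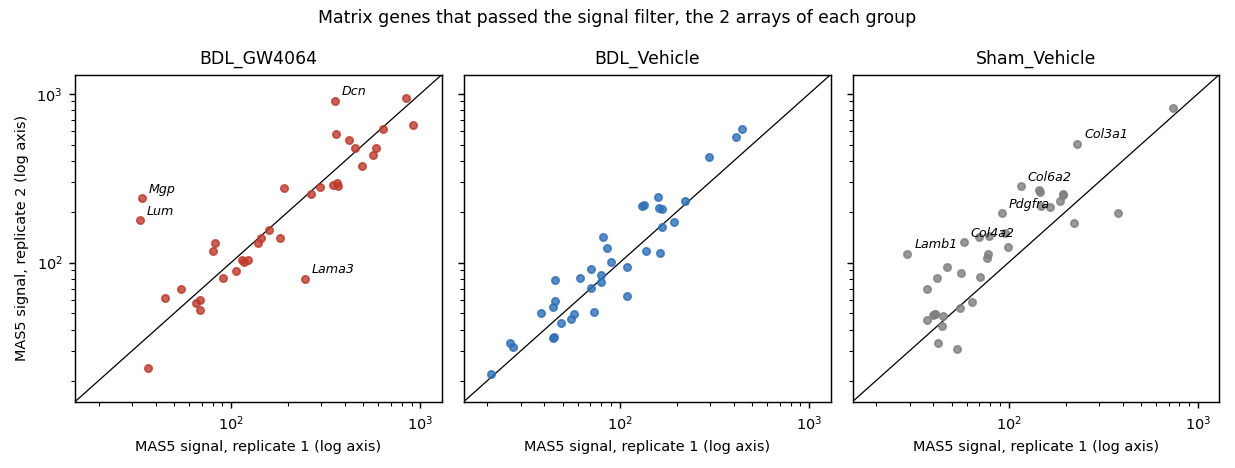
MAS5 signal of the 36 matrix genes that passed the filter in replicate 1 (horizontal, log axis) and replicate 2 (vertical, log axis) of BDL_GW4064, BDL_Vehicle and Sham_Vehicle. The line marks equal signal and genes that differ by more than 1 on the log2 scale are named: Mgp, Lum and Dcn lie far above it in BDL_GW4064, and 29 of 36 genes lie above it in Sham_Vehicle.

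Ligation itself left the matrix genes without a common direction. In BDL_Vehicle against Sham_Vehicle, 14 of the 36 genes had a higher and 22 a lower mean, with a median log2 fold change of -0.08, against -0.01 over all genes. Limma called 0 of them, where 0.0295% of all probe sets passed. An unadjusted p under 0.05 was reached by 1 higher and 1 lower, against 234 and 242 of all 7919 genes. Among the 32 genes, 2 were higher and 4 lower without overlap, below the 18.3% and 19.4% of all genes that were. By brightest probe set, the 2 with the smallest p were Lamb3 and Fbln1. Lamb3 was higher in BDL_Vehicle (log2 fold change 0.79 ± 0.303 (SE), limma adjusted p = 0.751), and Fbln1 was lower in BDL_Vehicle (log2 fold change -0.58 ± 0.215 (SE), limma adjusted p = 0.751). Nid1 (0.40 ± 0.326) and Ecm1 (0.19 ± 0.18) were next on the higher side, and Fn1 (-0.33 ± 0.157) and Col15a1 (at least 1.19-fold lower) on the lower side. Fn1 was lower in both BDL_Vehicle arrays than in both Sham_Vehicle arrays. Less bright probe sets that passed the filter also reached an unadjusted limma p under 0.05 for Col18a1, Bgn and Fbln1. Their log2 fold changes were 0.80, -0.55 and -0.70, and that of Col18a1 had a smaller p than Lamb3. The median turned with single arrays: it was -0.40 without Sham_Vehicle replicate 1 and 0.16 without Sham_Vehicle replicate 2, and without overlap 3 of the 32 genes were higher and 23 lower in the first case (34.1% and 35.4% of all genes were), and 16 higher and 6 lower in the second (31.3% and 33.2% of all genes). Of 14 genes with several probe sets that passed the filter, 8 had the same sign in all of them here, and Bgn, Col3a1, Col4a1, Col5a1, Pdgfra and Sparc did not, while all 14 had in the comparison of BDL_GW4064 with BDL_Vehicle.

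Against sham-operated mice, ligated mice with GW4064 again had more matrix signal. This comparison shares the BDL_GW4064 arrays with the first, so it is no second observation of the same difference. Fn1 was called here too, 2.97-fold higher in BDL_GW4064 (log2 fold change 1.57 ± 0.157 (SE), limma adjusted p = 0.03), where 0.0368% of probe sets were. That call was lost in 9 of 15 alternatives, among them each removal of a single array (limma adjusted p between 0.0717 and 0.126). Of the 32 genes, 23 were higher and 0 lower without overlap, against 24.9% and 24.0% of all genes, and 21 reached an unadjusted p under 0.05 on the higher side, against 7.01% of all genes. The median log2 fold change was 0.98 over the 36 genes, against 0.01 over all genes. Over all 64 genes with no filter 32 were higher and 5 lower without overlap, where 20.6% and 23.7% of all genes were.

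Next to Fn1, the genes with the smallest p on the higher side were Ecm1 (log2 fold change 1.35 ± 0.18 (SE), limma adjusted p = 0.103) and Col6a3 (1.65 ± 0.311 (SE), limma adjusted p = 0.165). On the lower side they were Col20a1 (-0.53 ± 0.306), Lama3 (-0.46 ± 0.454) and Eln (-0.20 ± 0.249), none of them with a size above 2 SE. Fbln1, Lum, Mgp, Nid1, Lamb1 and Lamc1, whose BDL_GW4064 arrays lay above both BDL_Vehicle arrays, overlapped the Sham_Vehicle arrays in their brightest probe sets.

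The genes that process and bind the matrix lay nearer to 0 than the matrix genes, and that difference was not tested. Of 11 genes of collagen synthesis and processing that passed without any 1 group, 9 were higher with GW4064 and 4 without overlap. Over all genes 18.6% were higher without overlap. The median log2 fold change of the 11 was 0.16, and none was called. The smallest p belonged to Pcolce, which speeds the trimming of procollagen (0.86 ± 0.299 (SE), limma adjusted p = 0.535). Crtap (0.55 ± 0.27) and Ppib (0.16), 2 partners in the prolyl 3-hydroxylase complex, followed. Of 15 matrix receptors 10 were higher and 5 lower, with a median of 0.06. Itgb1, the beta chain of most matrix integrins, had 929.7 and 1085 in BDL_GW4064, against 639.8 and 815.7 in BDL_Vehicle (0.47 ± 0.157 (SE), limma adjusted p = 0.503). The syndecan gene Sdc2 had 51.0 and 59.9 in BDL_GW4064, against 40.8 and 26.8 in BDL_Vehicle and 71.5 and 59.0 in Sham_Vehicle. Its log2 fold change was 0.67 ± 0.277 (SE) against BDL_Vehicle but -0.22 against Sham_Vehicle.

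Of 15 genes of TGF-beta signalling, the pathway best known for driving collagen expression, 10 were higher with GW4064, 7 without overlap (18.6% of all genes were). An unadjusted p under 0.05 was reached by 4 (4.76% of all genes), with a median of 0.15 and none called. Tgif1, a repressor in this pathway, had 249.5 and 197.1 in BDL_GW4064, against 109.5 and 106.1 in BDL_Vehicle and 120.8 and 112.4 in Sham_Vehicle (log2 fold change 1.01 ± 0.18 (SE), limma adjusted p = 0.201). The receptor gene Tgfbr2 had 0.66 ± 0.159 (SE; limma adjusted p = 0.337), and Eng, a co-receptor that is also an endothelial marker, 0.82 ± 0.194 (SE; limma adjusted p = 0.329). Of 11 other genes typical of fibroblasts, all 11 were higher with GW4064, with a median of 0.73. No overlap was seen for 10 (18.6% of all genes), and 6 had an unadjusted p under 0.05 (4.76% of all genes). Serping1, the C1 inhibitor, had 299.7 and 331.9 in BDL_GW4064, against 133.2 and 131.8 in BDL_Vehicle and 107.3 and 145.2 in Sham_Vehicle (1.23 ± 0.188 (SE), limma adjusted p = 0.132). Dpt, dermatopontin, a decorin-binding protein, had 96.6 and 237.3 in BDL_GW4064, against 49.6 and 33.4 in BDL_Vehicle and 67.5 and 63.8 in Sham_Vehicle, with the higher value in the array of high muscle signal.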

How the data were processed

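Ileum RNA from 6 samples was hybridised to Affymetrix Mouse Genome 430A 2.0 arrays, with 5 µg of total RNA per sample labelled in batches, per the labels' protocols; their batch membership was not given in the sources used here. Deposited intensity values are MAS5 signals, per the submitters' processing notes (version not stated there). Each array had a 2% trimmed mean of 200.1, so arrays had been scaled alike. Precision is limited by 2 arrays per group.

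Control probe sets (64 of 22690) were left out. Log2(signal + 4) was tested with limma 3.58.1 (R 4.3.3) on all 6 arrays, with a variance trend by signal, after the lowest 40% by mean were dropped, and p-values were adjusted over 13575 probe sets (Benjamini-Hochberg). Folds on this scale understate low genes; a group below 37.1 on both arrays was set to 37.1 and its fold given as a bound. The fit was tested on simulated data. Members and lists were chosen with earlier results of these data known. Named genes were a fixed set of 14, members past the threshold, the 3 with the smallest p per role, and the 3 per direction in the other comparisons. Up to 3 genes of each other list were named, and further genes of the cell marker lists were named after their values were seen. Gene symbols are those of the platform annotation, and all 64 matched RefSeq gene IDs. Alternatives covered normalisation, pseudocount, filter, variance prior, arrays, replicate block, array set by the 18S control, and probe set choice. Counts of non-overlapping genes and of unadjusted p-values without single arrays were added after seeing the data.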

Additional observations from a re-analysis of the deposited data

How the results depend on the processing

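Of the 36 matrix genes that passed the filter, 34 kept the sign of their difference between BDL_GW4064 and BDL_Vehicle in all 16 alternatives. Between BDL_GW4064 and Sham_Vehicle 27 did, and between BDL_Vehicle and Sham_Vehicle 13. Alternatives that changed only the filter, the variance trend or prior, the replicate block or the arrays giving the spread could not turn a sign. They leave the difference of the group means as it is, and the filter at 60% held 18 of the genes. The median against BDL_Vehicle was 0.87 with a pseudocount of 16, 0.60 with no filter (64 genes) and 1.33 with a filter at 60% (18 genes); against Sham_Vehicle it was 0.55 and 1.28 under those filters. The count of called genes against BDL_Vehicle was 0 without the signal trend and under a term for the array set (Fn1 adjusted p by limma 0.0563 and 0.0898), and 0 to 3 when single arrays were left out, the 3 being Fn1, Lum and Mgp without BDL_GW4064 replicate 1; that fit sets 1 array against 2 with the spread of the other groups, and Lum and Mgp passed the filter through BDL_GW4064 alone. Against Sham_Vehicle it was 0 with median centring, without the trend, with only the 4 arrays compared, under the array-set term and without single arrays, and 2 (Fn1 and Ecm1) with the mean of all probe sets of a gene. Over the probe sets that passed the filter, arrays with the same replicate number did not deviate together (correlations 0.037, 0.094 and -0.119). Such correlations cannot exclude that arrays of the same number shared a batch, and the labels do not say. With the number as a replicate block the count was 1 against BDL_Vehicle (Fn1 adjusted p by limma 0.0456) and 0 against Sham_Vehicle (0.0916).

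Among the fold changes printed for named genes, the signs that turned were those of Lama3 against BDL_Vehicle (-0.015 with median centring, and -0.73 to 0.83 without single arrays) and against Sham_Vehicle (0.042 with the array-set term, -1.24 to 0.32 without single arrays), Eln against BDL_Vehicle (-0.04 to 0.39) and Sham_Vehicle (-0.42 to 0.008), and Nid1 between BDL_Vehicle and Sham_Vehicle (-0.055 to 0.85). There the median ran from -0.40 to 0.16 without single arrays. The cause of these shifts was not tested. The number of arrays, 2 per group, limits every value, and signals under 37.1 give bounds alone.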
